A study of Homo sapiens with 18 samples.

Results

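The comparison described here asks where a hairpin against RNF213 changed messenger RNA differently in 2 human cholangiocarcinoma cell lines, YSCCC and KKU-100. Cholangiocarcinoma is a cancer of bile duct epithelium. The quantity tested was the hairpin effect (shRNF213#2 against shControl, as a log2 fold change) in YSCCC minus the same effect in KKU-100, and it is called the difference of effects below. A positive difference means that the hairpin libraries lay higher, relative to their own controls, in YSCCC than in KKU-100. The comparison used 12 of the 18 libraries of the study, 3 for each hairpin in each line, and the other 6 libraries are of a further line, HuCCT1.

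All groups carried a lentiviral hairpin. The shControl cells are labelled WT and the shRNF213#2 cells are labelled RNF213 knockdown, and each line was made as a stable culture with 1 hairpin against RNF213, so an effect of RNF213 and an effect particular to this hairpin cannot be told apart. The labels give liver as the tissue of YSCCC and biliary tract as that of KKU-100. YSCCC was grown in RPMI-1640 and KKU-100 in Ham's F12, so line and medium cannot be told apart. The replicates are biological per the series text, which does not say whether they came from separate transductions. Values of replicates 1, 2 and 3 are given in that order throughout, those of shControl before those of shRNF213#2.

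RNF213 encodes a very large protein with AAA ATPase modules and a RING domain that acts as an ubiquitin ligase. It is itself induced by interferon, it coats intracellular bacteria and lipid droplets, and inherited variants are linked to moyamoya disease of the brain arteries. Ubiquitin ligases mark other proteins for degradation or for signalling, so changes in messenger RNA after their loss are downstream readouts and not direct substrates.

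Library totals ran from 21056732 to 25502097 counts, and 1.61% to 2.21% of counts were mitochondrial. Levels are given as CPM, counts scaled to the size of the library. The biliary markers KRT7, KRT8, KRT18 and SOX9 were present in both lines, but KRT19 (shControl and hairpin group means of 0.0787 and 0 CPM) and EPCAM (0 and 0.0453 CPM) were at or near 0 in KKU-100, against 817 and 883 CPM and 273 and 268 CPM in YSCCC, and CFTR was below 1 CPM in every library. Of the 8 hepatocyte markers, SERPINA1 was present (4.83 and 9.66 CPM in YSCCC, 17 and 21.2 CPM in KKU-100), HNF4A had group means of 0.84 to 2.06 CPM, and the others, ALB among them, had group means below 1 CPM. In YSCCC the stromal marker LUM (109 and 158 CPM) and the endothelial marker CDH5 (49.0 and 67.8 CPM) were high, while the other 6 stromal markers had group means of 0.113 (PDGFRB) to 11.9 CPM (COL1A1) and the other 3 endothelial markers of 0 (KDR) to 3 CPM (PECAM1). YSCCC replicate 3 stood apart in both arms: the summed level of 30 mitosis genes was 3402, 2991 and 911 CPM in the shControl and 3741, 3756 and 846 CPM in the shRNF213#2 libraries. KKU-100 replicate 3 stood apart in the pair itself, since the same sum was 1508, 302 and 423 CPM in shControl and 1797, 324 and 1565 CPM in shRNF213#2.

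RNF213, the targeted gene (chr17:80260866-80398786, plus strand, build GRCh38 as in the files), was lower in every hairpin library than in every control library of its line. In YSCCC it stood at 430.5, 382 and 529 CPM in shControl and at 152, 237 and 217 CPM in shRNF213#2. In KKU-100 the levels were 1292, 1025 and 1247 CPM and 571, 669 and 567 CPM, so that even the KKU-100 knockdown libraries lay above the YSCCC control libraries. The effect was -1.16 ± 0.16 (SE, adjusted p = 0.00589) in YSCCC and -0.98 ± 0.16 (SE, adjusted p = 0.0125) in KKU-100 by edgeR's quasi-likelihood test. Without the replicate block the adjusted p was 0.182 and 0.295 at about the same effects (-1.15 and -0.98). The difference of effects was -0.18 ± 0.22 (SE, adjusted p = 0.735), and an exact two-sided permutation test of the 3 pair log2 ratios of each line gave p = 0.5, where the smallest p that 3 against 3 allows is 0.1. The relative reduction was therefore not shown to differ, whereas the remaining level of the transcript was higher in KKU-100 in all 3 pairs.

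Across the 18162 genes tested, the hairpin effect differed between the lines for 220 genes (1.21% of the genes tested) at a Benjamini-Hochberg adjusted p below 0.05 in edgeR's quasi-likelihood test with replicate pairs as blocks. For 77 genes (0.424%) the effect was higher in YSCCC and for 143 genes (0.787%) it was lower in YSCCC. In the same fit the hairpin changed 470 genes (2.59%) in YSCCC and 397 genes (2.19%) in KKU-100. Of the 220 genes, 85 were called in KKU-100 alone, 87 in YSCCC alone, 7 in both lines in opposite directions and 1 in both lines in the same direction, while 40 were called in neither line on its own. The fitted effects had opposite signs for 198 of the 220 genes (90%), against 50.2% of all genes tested, and selection by the difference itself favours such genes. Selection also favours genes whose pair ratios do not overlap between the lines. The 3 pair ratios of 1 line lay entirely above or below those of the other for 219 of the 220 genes, against 4704 (25.9%) of all genes tested. The exception was C1RL, a protease-like gene related to complement C1r, named after its values were seen. Both lines expressed most of these genes in the shControl cultures: 198 of 220 (90%) had a shControl mean of at least 1 CPM in both lines. The share was 67.8% of all genes tested, and calling itself favours genes with enough counts.

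These calls rest on the pairing and on every YSCCC pair. Without the replicate block no gene passed (884 genes had an unadjusted p below 0.05; DESeq2 without the block called 19 and limma-voom 0), and without YSCCC replicate 1, 2 or 3 the count was 15, 8 or 20. Without KKU-100 replicate 1, 2 or 3 it was 122, 490 or 146. All 220 genes kept the sign of their difference in each of these fits, but selection by that difference favours this, so it is no separate support. SH3RF2, SFXN3, LAMA4, PEG10 and TGFA kept their call without each of the 6 pairs in turn, SLC6A14 and CYLD kept it in 5 of the 6 fits, and the other genes named below kept it in 4 or fewer. By limma-voom with the block, 49 of the 66 called differences named in this report stayed called and 17 did not. Those lost were AXIN2, C1RL, CDA, COL4A5, COL6A2, CP, CSF1, CYP4F12 and EGR1. Also lost were FBN2, GFY, MRPS30-DT, OLFML2A, PLEKHG4, RSAD2, SPTLC3 and ZNF90.

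**Figure D1:**
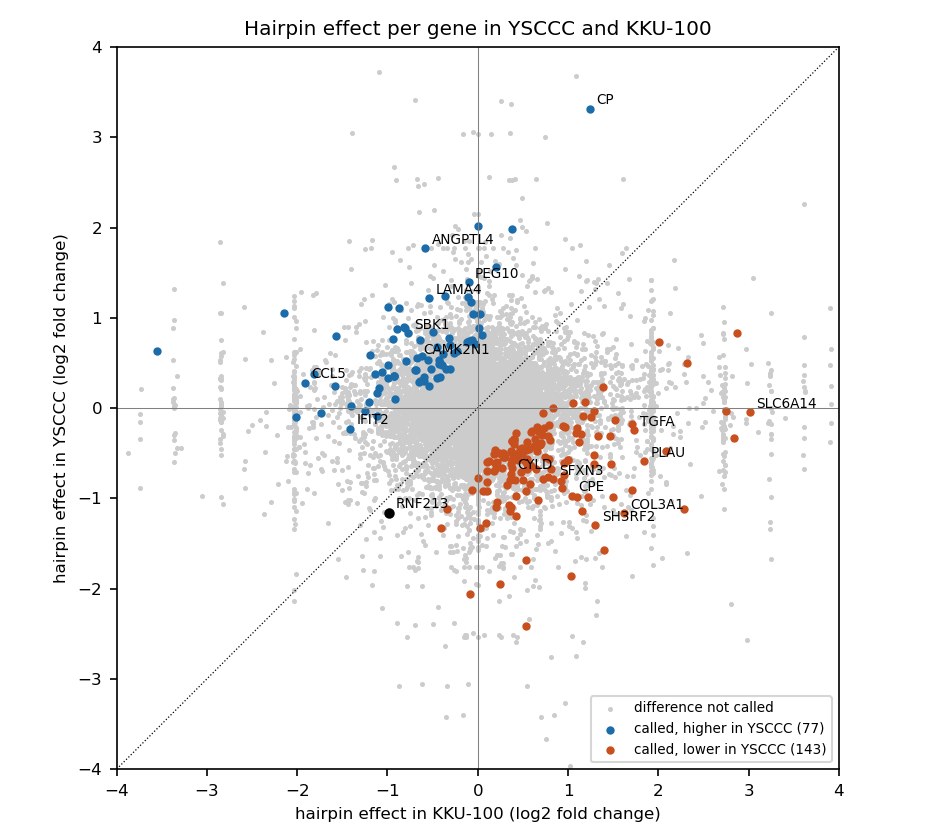
Hairpin effect per gene (log2 fold change of shRNF213#2 against shControl) in KKU-100 on the horizontal axis and in YSCCC on the vertical axis. Grey points are genes without a called difference, coloured points are the 77 genes higher and the 143 genes lower in YSCCC, the black point is RNF213 and the dotted line marks equal effects; 25 genes outside the range (none of them called) are not drawn. Most coloured points lie in the 2 quadrants of opposite sign.

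The 7 genes called in opposite directions (0.0385% of the genes tested) were SH3RF2, CPE, SFXN3, PPP2R5B and SLC9A7, which fell in YSCCC and rose in KKU-100, and SBK1 and CAMK2N1, which rose in YSCCC and fell in KKU-100. SH3RF2 (chr5:145936578-146081791) encodes a scaffold protein with a RING finger and SH3 domains that acts on JNK signalling. Its level in YSCCC was 105, 72.7 and 62 CPM with shControl and 53.8, 30.7 and 19.1 CPM with shRNF213#2, and in KKU-100 it was 11.2, 9.65 and 10.9 CPM and 32.7, 18.4 and 29.2 CPM. The 2 arms did not overlap in either line, and the line with the higher control level was the one in which the gene fell. The effect was -1.30 ± 0.15 (SE, adjusted p = 0.00348) in YSCCC and 1.30 ± 0.16 (SE, adjusted p = 0.00433) in KKU-100, a difference of -2.60 ± 0.23 (SE, adjusted p = 0.00243), which was the smallest adjusted p among the genes tested.

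SFXN3 (chr10:101031234-101041244), a sideroflexin that carries serine into mitochondria, moved the same way. It stood at 58.3, 52.7 and 33.5 CPM in YSCCC controls against 41, 24.6 and 19.6 CPM with the hairpin, and at 17.3, 29.5 and 19 CPM in KKU-100 controls against 31.7, 48 and 36.1 CPM. Each pair fell in YSCCC and rose in KKU-100, although the control and hairpin libraries of YSCCC overlapped when compared across pairs. The difference was -1.62 ± 0.18 (SE, adjusted p = 0.0086). CPE (chr4:165361194-165498547), the carboxypeptidase that trims peptide hormones in secretory granules, stood at 53.2, 47.8 and 37.1 CPM in YSCCC controls and 23.8, 19.1 and 27.5 CPM with the hairpin, and at 32.2, 50.4 and 17.2 CPM and 76.6, 74.9 and 43.2 CPM in KKU-100. In YSCCC the arms were separate, and in KKU-100 they overlapped across pairs where replicate 3 lay lower in both arms. The difference was -2.01 ± 0.26 (SE, adjusted p = 0.0129).

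PPP2R5B (chr11:64917553-64934475), a regulatory subunit of protein phosphatase 2A, changed by -0.62 ± 0.12 in YSCCC and 0.57 ± 0.12 in KKU-100 (log2 effects, SE; adjusted p of the difference = 0.0134). SLC9A7 (chrX:46599251-46759118), a sodium and proton exchanger of the trans-Golgi, changed by -0.51 ± 0.11 and 0.49 ± 0.11 (SE; adjusted p of the difference = 0.018). In the other direction CAMK2N1 (chr1:20482391-20486210), an inhibitor of the calcium-dependent kinase CaMKII, stood at 143, 182 and 94.1 CPM in YSCCC controls and 240.4, 295 and 108 CPM with the hairpin, against 22.7, 27.5 and 39.3 CPM and 14.3, 20.6 and 20.5 CPM in KKU-100. Its rise in YSCCC was smallest in replicate 3. Its difference was 1.23 ± 0.19 (SE, adjusted p = 0.018). SBK1 (chr16:28259246-28323849), a serine and threonine kinase, stood at 4.3, 4.35 and 8.79 CPM and 7.26, 9.49 and 13.6 CPM in YSCCC and at 5.53, 11.3 and 8.73 CPM and 3.07, 6.5 and 5.38 CPM in KKU-100. Both of its arms overlapped across pairs in each line, while every pair moved in the direction of its line (difference 1.61 ± 0.24, SE, adjusted p = 0.015).

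**Figure D2:**
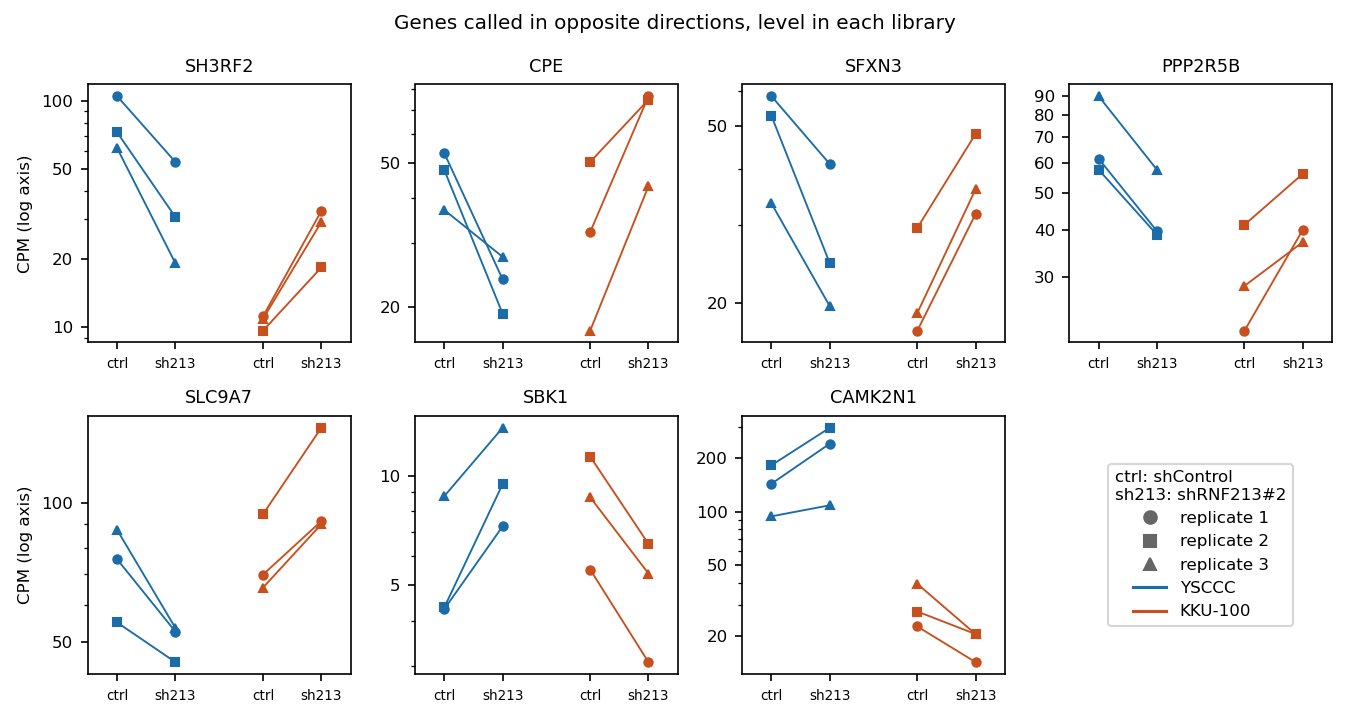
Level in CPM (log axis) of the 7 genes called in opposite directions, in each of the 12 libraries. Lines join the shControl and shRNF213#2 libraries of 1 replicate, blue for YSCCC and orange for KKU-100; all 3 lines of a colour slope the same way in every panel, and the colours slope against each other.

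Among genes that moved mainly in KKU-100, the largest rise with a called difference was that of SLC6A14, a sodium- and chloride-driven importer of neutral and cationic amino acids. It stood at 18.5, 24.8 and 29.7 CPM in KKU-100 controls and 172, 273 and 153 CPM with the hairpin, and at only 1.36, 1.08 and 2.69 CPM and 1.17, 1.65 and 2.04 CPM in YSCCC. The hairpin libraries of KKU-100 lay above all its controls, and the YSCCC arms overlapped at a level near 1 to 3 CPM. The effect was 3.02 ± 0.20 (SE, adjusted p = 0.000145) in KKU-100 and -0.05 ± 0.30 (SE, adjusted p = 0.963) in YSCCC. The lines differed by -3.07 ± 0.36 (SE, adjusted p = 0.0086). Its call was lost without YSCCC replicate 3 (adjusted p = 0.0611).

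TGFA, a ligand of the EGF receptor, stood at 14.6, 19.4 and 9.66 CPM in KKU-100 controls and 58.9, 54.3 and 31.4 CPM with the hairpin, whereas in YSCCC it was 53.7, 52.1 and 50.2 CPM and 41.9, 37 and 54.4 CPM. With the hairpin, KKU-100 exceeded all 3 YSCCC control libraries in replicates 1 and 2, and the YSCCC arms overlapped. The difference was -1.97 ± 0.20 (SE, adjusted p = 0.00739). TGFA was the 1 member called among the 16 tested of the EGF receptor family and its ligands. Their median difference was -0.05, against 0.01 over all genes tested. The share called over all genes tested was 1.21%, to be set beside each count of called list members below. SEMA3C and SEMA3B, secreted semaphorins that signal through neuropilins and plexins, differed by -1.15 ± 0.15 and -1.73 ± 0.30 (SE, adjusted p = 0.0129 and 0.0278). SEMA3B passed in neither line, with effects of -0.80 in YSCCC and 0.92 in KKU-100 (edgeR adjusted p = 0.0763 and 0.0534). SEMA3C rose in KKU-100 (0.94 ± 0.10, SE, adjusted p = 0.00254) from 149, 119 and 100.5 CPM to 263, 222 and 216 CPM, with no overlap of the arms.

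PLAU, S100A9, GALNT10 and GALNT1 also rose in KKU-100 and carried a called difference. PLAU, urokinase, the protease that activates plasminogen, stood at 7.7, 30.6 and 13.1 CPM and 57.2, 62 and 44.9 CPM in KKU-100 and at 179.8, 152 and 208 CPM and 143, 104 and 113 CPM in YSCCC. It rose in every KKU-100 pair and was lower in every YSCCC pair, where the effect did not pass (-0.59 ± 0.24, SE, adjusted p = 0.238). This gave a difference of -2.43 ± 0.36 (SE, adjusted p = 0.015). PLAU was the only member called among 26 matrix proteases and inhibitors tested, of which 20 had a negative difference, with a median of -0.31. Without KKU-100 replicate 1 the median was -0.18, and 18 were negative. S100A9, a subunit of calprotectin, rose in KKU-100 by 1.52 ± 0.21 (SE, adjusted p = 0.00718) from 7.65, 5.44 and 13.5 CPM to 38.8, 12.7 and 27.4 CPM while YSCCC stayed between 412 and 742 CPM in both arms. The GALNT enzymes start mucin-type O-glycosylation in the Golgi. GALNT10 differed by -1.09 ± 0.16 (SE, adjusted p = 0.0144) and GALNT1 by -1.26 ± 0.23 (SE, adjusted p = 0.0325), both with a rise in KKU-100 (0.70 and 1.17, adjusted p = 0.012 and 0.00771).

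In the same list of 32 tested glycosylation genes, SLC35A1, which carries CMP-sialic acid into the Golgi, went the other way, with 14.8, 13.5 and 15.4 CPM in YSCCC controls, 30.9, 33.7 and 25.9 CPM in the YSCCC hairpin libraries and a KKU-100 effect of 0.02 ± 0.14 (SE, adjusted p = 0.984). All 3 YSCCC hairpin libraries lay above the controls. The difference was 1.02 ± 0.19 (SE, adjusted p = 0.0331). The list had 3 called members (9.38%, against 1.21% of all genes tested), 13 positive and 19 negative differences and a median of -0.15. The median was -0.28 without YSCCC replicate 3, -0.10 without YSCCC replicate 2 and -0.09 without KKU-100 replicate 1. CYP4F12, a cytochrome P450 of fatty acid and drug oxidation, rose in KKU-100 (2.00 ± 0.19, SE, adjusted p = 0.00108) and had a smaller positive effect in YSCCC (0.73 ± 0.18, SE, adjusted p = 0.0573). Its difference was -1.27 ± 0.26 (SE, adjusted p = 0.0439). The call was lost with all 18 libraries in the edgeR fit (adjusted p = 0.05505) and by limma-voom (adjusted p = 0.0565).

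PEG10, an imprinted gene of retrotransposon origin whose protein forms capsids, rose in YSCCC, and no change passed in KKU-100. Its level was 135, 176 and 112 CPM in YSCCC controls and 369, 479 and 274 CPM with the hairpin, and 221, 188 and 152 CPM and 244, 139.8 and 151 CPM in KKU-100. The YSCCC arms were separate by a wide gap, and the KKU-100 arms overlapped at the control level of YSCCC or a little above. The effects were 1.39 ± 0.12 (SE, adjusted p = 0.0011) and -0.10 ± 0.12 (SE, adjusted p = 0.706). The lines differed by 1.49 ± 0.16 (SE, adjusted p = 0.0086). Among the 14 tested host genes derived from retroviruses and retrotransposons PEG10 was the 1 called, and 12 of the 14 had a negative difference.

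Integrins are the receptors by which cells hold on to matrix, and laminins are the trimeric ligands in basement membranes. Of 23 such genes tested, 4 had a called difference (17.4%, against 1.21% of all genes tested), LAMA4 higher and ITGA5, ITGA6 and LAMA3 lower in YSCCC. The difference was negative for 20 of the 23, with a median of -0.61 (the median effects were -0.25 in YSCCC and 0.32 in KKU-100). The same count of 20 stood in the fit without the replicate block, but that fit uses the same libraries, so this is no separate support. The median pair ratios were -0.375, -0.12 and -0.212 for the YSCCC pairs and 0.423, 0.3 and 0.105 for those of KKU-100. The summed level of the 23 genes went from 8229, 6994 and 6181 CPM to 6278, 6111 and 5523 CPM in YSCCC, a fall in every pair, and from 7150, 7907 and 9110 CPM to 9112, 9953 and 8740 CPM in KKU-100, a rise in replicates 1 and 2 and not in 3.

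LAMA4, the alpha-4 chain of laminins, stood at 3.31, 4.85 and 4.0 CPM in YSCCC controls and 9.72, 10.8 and 7.88 CPM with the hairpin, and at 176, 125 and 175 CPM and 105, 108 and 109.7 CPM in KKU-100. The arms were separate in both lines, and the gene remained far higher in KKU-100. It rose in YSCCC (1.22 ± 0.16, SE, adjusted p = 0.00455), and its effect in KKU-100 was -0.54 ± 0.13 (SE, adjusted p = 0.0565). This gave a difference of 1.76 ± 0.20 (SE, adjusted p = 0.0086). LAMA3, the alpha-3 chain of the epithelial laminin 332, ran against LAMA4 within the list: it stood at 125, 114 and 60.5 CPM and 75.5, 71.7 and 43.7 CPM in YSCCC and at 15.3, 8.1 and 15 CPM and 20.7, 17.2 and 16.5 CPM in KKU-100. Every YSCCC pair was lower and every KKU-100 pair higher with the hairpin, and neither effect passed on its own. The difference was -1.16 ± 0.22 (SE, adjusted p = 0.0325).

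ITGA5, the alpha chain of the fibronectin receptor, fell in YSCCC from 323, 246 and 235 CPM to 203, 129 and 180.4 CPM and stood at 73.2, 56.7 and 67 CPM and 101, 69.5 and 87.2 CPM in KKU-100. All 3 YSCCC hairpin libraries lay below the controls, and the KKU-100 arms overlapped across pairs (difference -1.04 ± 0.16, SE, adjusted p = 0.018). ITGA6, the alpha chain of the main laminin receptors of epithelium, differed by -1.11 ± 0.21 (SE, adjusted p = 0.0348). Other members passed in 1 line only and not for the difference, and they are named here after their values were seen. ITGA2 and ITGB3 fell in YSCCC (-1.12 and -1.86), among 4 of 23 that fell against 1.35% of all genes tested, and ITGB4 and LAMB1 rose in KKU-100 (1.19 and 0.58), against 1.22% of all genes tested.

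Epithelial junction genes hold neighbouring epithelial cells together, and they also lay to the negative side. Of 28 tested, 22 had a negative difference, the median was -0.49, and 2 were called (7.14%, against 1.21% of all genes tested). Over all genes tested 9163 differences were positive and 8999 negative. DSG2, a desmosomal cadherin, stood at 756, 642 and 395 CPM and 464, 356 and 283 CPM in YSCCC and at 51.4, 47 and 42 CPM and 98.9, 47.9 and 66.5 CPM in KKU-100. It was lower in every YSCCC pair and higher in every KKU-100 pair, by little in KKU-100 replicate 2. Its difference was -1.23 ± 0.21 (SE, adjusted p = 0.0278). CLDN1, a tight junction claudin, differed by -0.80 ± 0.16 (SE, adjusted p = 0.0357). TRIM29, a protein of stratified epithelium that was named for the size of its difference, was lower in every YSCCC pair without passing (-0.99 ± 0.24, SE, adjusted p = 0.0546) and rose in KKU-100 (1.23 ± 0.27, SE, adjusted p = 0.0427), with a difference of -2.22 ± 0.36 (SE, adjusted p = 0.0213).

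Among 30 collagens and matrix glycoproteins tested, 4 had a called difference (13.3%, against 1.21% of all genes tested), COL6A2 higher and FBN2, COL3A1 and COL4A5 lower in YSCCC. Negative differences numbered 20 of 30, and the median was -0.50. Without KKU-100 replicate 1 the split was near even, with 16 negative and 15 positive and a median of -0.22. COL3A1, a fibrillar collagen, stood at 7.65, 11 and 10.4 CPM and 4.06, 4.72 and 4.05 CPM in YSCCC and at 5.63, 8.42 and 7.65 CPM and 34.3, 9.83 and 30.3 CPM in KKU-100. The arms were separate in both lines, and the rise in KKU-100 was small in replicate 2 and large in replicates 1 and 3, with a difference of -2.78 ± 0.49 (SE, adjusted p = 0.0278). COL3A1 is also a marker of fibroblasts; the summed level of the 7 stromal markers ran from 66.5 to 194 CPM in YSCCC controls, 41.8 to 256 CPM in its hairpin libraries, 18.7 to 29.8 CPM in KKU-100 controls and 21.4 to 52.0 CPM in its hairpin libraries. LUM held most of the YSCCC sum. All 7 stromal markers, COL3A1 included, had a negative difference, with a median of -1.32; COL3A1 was the 1 called, and 4 had an unadjusted p below 0.05. The part of these markers in the result was not tested. COL6A2, a chain of the beaded-filament collagen, went the other way, with 1.12, 1.35 and 7.41 CPM and 2.3, 1.77 and 13 CPM in YSCCC and 28.3, 56.7 and 41.2 CPM and 11.5, 43.8 and 18 CPM in KKU-100. Each pair was higher in YSCCC and lower in KKU-100 with the hairpin, although the arms overlapped across pairs. The lines differed by 1.70 ± 0.29 (SE, adjusted p = 0.0257). COL4A5, a basement membrane collagen, rose in KKU-100 (1.39 ± 0.18, SE, adjusted p = 0.00499) and differed by -1.16 ± 0.24 (SE, adjusted p = 0.0481). The list's other calls in a single line, named after their values were seen, were a fall of FN1 and SPARC and a rise of POSTN in YSCCC (-1.28, -1.27 and 1.44) and a rise of TNC, COL5A2 and ABI3BP in KKU-100 (1.37, 0.96 and 2.29).

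Proteins bound for secretion are folded in the endoplasmic reticulum, and collagens need dedicated enzymes there. Of 21 collagen chaperones and modifying enzymes tested, 2 had a called difference (9.52%, against 1.21% of all genes tested), both lower in YSCCC. BMP1, the procollagen C-proteinase, stood at 38.6, 31.6 and 30.2 CPM and 22.8, 19.8 and 24.8 CPM in YSCCC and at 57.6, 69.2 and 91 CPM and 79.5, 97 and 105 CPM in KKU-100. The YSCCC arms were separate. This gave a difference of -0.96 ± 0.17 (SE, adjusted p = 0.0278). FKBP10, a prolyl isomerase that acts on procollagen, fell in YSCCC (-0.58 ± 0.10, SE, adjusted p = 0.0154) and differed by -0.71 ± 0.14 (SE, adjusted p = 0.0352). SERPINH1, the collagen chaperone HSP47, fell in both lines (-1.87 ± 0.16 and -1.46 ± 0.16, SE, adjusted p = 0.0011 and 0.00229), and its difference of -0.41 ± 0.22 (SE) did not pass (adjusted p = 0.381).

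SEC23A is a subunit of the COPII coat that carries cargo out of the endoplasmic reticulum. It was the 1 gene called of 20 COPII genes tested (5%, against 1.21% of all genes tested). It stood at 67.1, 60.4 and 68.4 CPM and 34.3, 22.3 and 22.7 CPM in YSCCC and at 246, 227 and 202 CPM and 186, 196 and 133 CPM in KKU-100. The hairpin libraries were lower than the controls in both lines with no overlap. The fall in YSCCC passed (-1.33 ± 0.13, SE, adjusted p = 0.00159), and the effect in KKU-100 did not (-0.40 ± 0.13, SE, adjusted p = 0.121). The difference was -0.93 ± 0.18 (SE, adjusted p = 0.0358). Of 25 chaperones of the endoplasmic reticulum tested, 2 were called (8%, against 1.21% of all genes tested). They were HERPUD1, which serves the degradation of misfolded proteins, and DNAJC3, a co-chaperone. Both fell in YSCCC (-0.53 and -0.61, adjusted p = 0.0335 and 0.0183) and differed by -0.81 ± 0.16 and -0.80 ± 0.15 (SE, adjusted p = 0.0352 and 0.0338). YSCCC replicate 3 was far above the other YSCCC replicates in both arms for HERPUD1 (119.6, 103 and 502 CPM in shControl, 93.4, 71.3 and 308 CPM in shRNF213#2). Both calls were lost without any 1 of the YSCCC pairs and without KKU-100 replicate 3, while the difference stayed between -0.93 and -0.73 for HERPUD1 and between -0.92 and -0.74 for DNAJC3 as single pairs were left out.

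**Figure D3:**
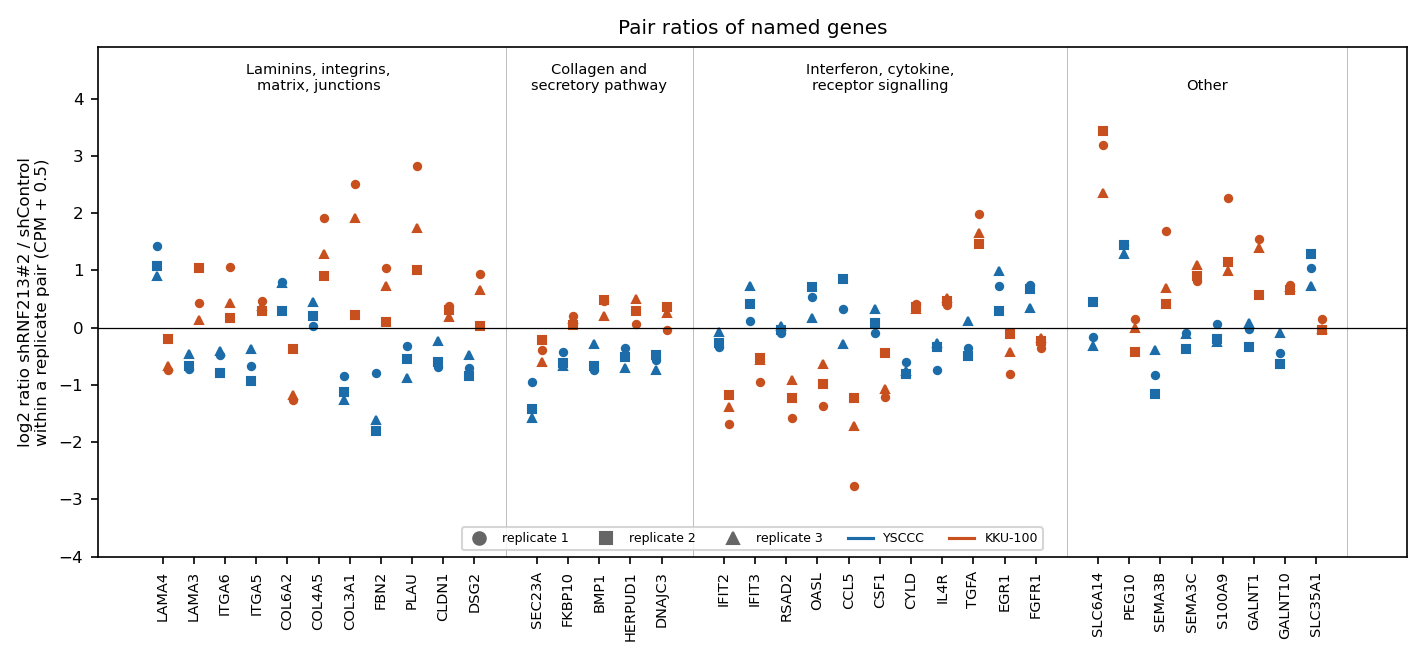
Log2 ratio of shRNF213#2 to shControl within each replicate pair (CPM plus 0.5) for 35 named genes, in 4 groups by role. Blue symbols are the 3 YSCCC pairs and orange symbols the 3 KKU-100 pairs, and the shape gives the replicate. For every gene shown the colours do not overlap, which the choice of called genes favours.

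Interferon-stimulated genes are switched on by STAT and IRF proteins that bind short repeats of GAAA in promoters, and many of their products block virus replication. Of 47 such genes tested, 40 had a positive difference, the median was 0.30 (0.13 in YSCCC and -0.19 in KKU-100), and 5 were called (10.6%), all higher in YSCCC, against 0.424% of all genes tested. Without YSCCC replicate 1 the median was 0.47. The median pair ratios were -0.0925, 0.129 and 0.307 for the YSCCC pairs, and -0.31, -0.234 and -0.0425 for those of KKU-100. The YSCCC pairs therefore did not share a direction, and the KKU-100 shift was smallest in replicate 3. In KKU-100, 7 of the 47 fell (IFIT1, IFIT2, IFIT3, IFIH1, ISG20, OASL and RSAD2), against 0.964% of all genes tested, and none rose, while in YSCCC IFI44 and IFI44L rose and none fell. The levels were very unequal in the shControl cultures: the 47 genes summed to 2996, 2800 and 2523 CPM in YSCCC controls and 26690, 20690 and 20000 CPM in KKU-100 controls. With the hairpin the sums were 2749, 2803 and 2849 CPM and 20870, 17670 and 17980 CPM, lower in every KKU-100 pair and without a common direction in YSCCC.

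Windows around the GAAA repeat are shown for the 3 called interferon-stimulated genes found in the RefSeq promoter table (GRCh38.p14, 250 bases before to 50 after each transcript start), to let the shared letters be seen beside the values. Capitals mark matches to GAAA, any 2 bases and GAAA again, searched on both strands and here read on the plus strand as the reverse complement (TTTC, 2 bases, TTTC), and the sequences run 5′ to 3′.
IFI44, chr1:78649751-78649810: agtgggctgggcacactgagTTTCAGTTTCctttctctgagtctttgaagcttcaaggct
IFIT3, chr10:89332415-89332507: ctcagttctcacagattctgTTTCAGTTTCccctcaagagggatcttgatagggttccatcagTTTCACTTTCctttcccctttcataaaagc
RSAD2, chr2:6877612-6877671: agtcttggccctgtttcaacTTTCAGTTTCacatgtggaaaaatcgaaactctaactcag
The motif was in 1255 of 35116 promoters of this length (3.57%). By gene, at least 1 promoter held it for 27 of the 36 interferon-stimulated genes in the table (75%), for 7 of the 53 called genes with a higher effect in YSCCC (13.2%) and for 0 of the 115 with a lower effect, against 4.38% of all genes. A match is a description of these letters and not of a bound site. No window is shown for IFIT2, OASL and CCL5.

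IFIT2, which binds viral RNA and restricts translation, stood at 1845, 836 and 848 CPM in KKU-100 controls and 571, 370.4 and 326 CPM with the hairpin, and at 250, 139.6 and 142 CPM and 198, 116 and 135 CPM in YSCCC. The KKU-100 arms were separate, and the YSCCC pairs were each lower by a little. The effect in KKU-100 was -1.42 ± 0.12 (SE, adjusted p = 0.000501), and that in YSCCC was -0.23 ± 0.12 (SE, adjusted p = 0.359). Its difference was 1.19 ± 0.16 (SE, adjusted p = 0.0134). OASL, an interferon-induced homologue of the oligoadenylate synthetases, stood at 962, 436 and 398 CPM and 371, 220.5 and 256 CPM in KKU-100 and at 13.8, 6.19 and 11.2 CPM and 20.1, 10.4 and 12.6 CPM in YSCCC. Each KKU-100 pair fell and each YSCCC pair was higher. The lines differed by 1.48 ± 0.21 (SE, adjusted p = 0.0142).

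IFIT3, a partner of IFIT2, fell in KKU-100 (-0.69 ± 0.13, SE, adjusted p = 0.0242) and differed by 1.11 ± 0.19 (SE, adjusted p = 0.0238). RSAD2, the antiviral enzyme viperin, fell in KKU-100 (-1.24 ± 0.12, SE, adjusted p = 0.00109) from 602, 343 and 179 CPM to 202, 146 and 95 CPM. In YSCCC it lay between 1.15 and 4.67 CPM in both arms. This gave a difference of 1.21 ± 0.22 (SE, adjusted p = 0.032). IFI44, an interferon-induced GTPase-like protein, was the fifth and rested on YSCCC: it rose there (0.63 ± 0.11, SE, adjusted p = 0.0165) from 18.7, 19.4 and 14.9 CPM to 25.5, 29.3 and 27.3 CPM, while the KKU-100 effect was -0.23 ± 0.10 (SE, adjusted p = 0.258). The difference was 0.87 ± 0.15 (SE, adjusted p = 0.0278). The YSCCC rise of IFI44 was seen in all 3 pairs, with ratios of 0.43, 0.58 and 0.85. The list held 0 calls without YSCCC replicate 1, 0 without replicate 2 and 1 without replicate 3. With all 18 libraries in the edgeR fit the differences of RSAD2 and IFI44 did not pass (adjusted p = 0.1085 and 0.05852). That of RSAD2 did not pass by limma-voom either (adjusted p = 0.09669).

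Cytokines and the NF-kappaB system held further differences. CCL5, a chemokine that draws T cells, stood at 414, 98 and 125 CPM in KKU-100 controls and 60.2, 41.5 and 37.9 CPM with the hairpin, and at 24.3, 8.69 and 28.7 CPM and 30.4, 16.1 and 23.3 CPM in YSCCC. All KKU-100 pairs fell, most in replicate 1 where the control was highest, and the YSCCC arms overlapped; the difference was 2.20 ± 0.37 (SE, adjusted p = 0.0249). CSF1, the growth factor of macrophages, fell in KKU-100 (-0.92 ± 0.15, SE, adjusted p = 0.012) with a difference of 1.02 ± 0.21 (SE, adjusted p = 0.0396). CCL5 and CSF1 were the 2 called of 21 chemokines and interleukin-6 group genes tested (9.52%, against 1.21% of all genes tested). CXCL10 and CXCL11 also fell in KKU-100 (-1.37 and -1.26, named after their values were seen) without a called difference.

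CYLD, a deubiquitinase that removes linear and lysine-linked ubiquitin chains and restrains NF-kappaB, stood at 116, 99.9 and 125 CPM in YSCCC controls and 76.4, 56.8 and 73.8 CPM with the hairpin, and at 77, 80.0 and 57.4 CPM and 102, 103 and 72.2 CPM in KKU-100. It fell in YSCCC with no overlap (-0.73 ± 0.09, SE, adjusted p = 0.00458) and was higher in each KKU-100 pair, where the effect missed the threshold (0.37 ± 0.10, SE, adjusted p = 0.0698). The difference was -1.09 ± 0.13 (SE, adjusted p = 0.0116), and the call was lost without YSCCC replicate 2 (adjusted p = 0.0624). CD83, an activation marker of immune cells and a target of NF-kappaB, fell in KKU-100 (-1.20 ± 0.17, SE, adjusted p = 0.00718) and differed by 1.27 ± 0.23 (SE, adjusted p = 0.0297). These were the 2 called of 31 NF-kappaB response genes tested (6.45%, against 1.21% of all genes tested), in opposite directions. TNFAIP3, the feedback inhibitor A20, fell in both lines (-0.90 in YSCCC and -0.73 in KKU-100, adjusted p = 0.00583 and 0.0125). IL4R, the alpha chain of the interleukin 4 receptor, was lower in every YSCCC pair and higher in every KKU-100 pair, with ratios of -0.74, -0.34 and -0.26 against 0.40, 0.47 and 0.51, and neither line passed alone. Its difference was -0.91 ± 0.16 (SE, adjusted p = 0.0257).

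Single calls stood in other signalling lists. EGR1, an immediate early transcription factor downstream of ERK, rose in YSCCC (0.67 ± 0.15, SE, adjusted p = 0.046) and differed by 1.12 ± 0.22 (SE, adjusted p = 0.0343), the 1 called of 21 immediate early genes, of which 17 had a positive difference with a median of 0.39. Without KKU-100 replicate 1, 14 were positive and the median was 0.16. The level of EGR1 varied widely between replicates of 1 arm and stood at 18.7, 156 and 88.4 CPM in the YSCCC controls. Its call was lost with all 18 libraries in the edgeR fit (adjusted p = 0.05087) and by limma-voom (adjusted p = 0.05054). FGFR1, a fibroblast growth factor receptor, rose in YSCCC (0.61 ± 0.12, SE, adjusted p = 0.0286) and differed by 0.87 ± 0.17 (SE, adjusted p = 0.0364), the 1 called of 29 receptor kinase genes. AXIN2, the feedback inhibitor of Wnt signalling, passed in neither line and differed by -1.58 ± 0.33 (SE, adjusted p = 0.0481), at levels of 0.691 to 6.32 CPM. HIST1H2BC, a histone gene, fell in YSCCC (-0.79 ± 0.15, SE, adjusted p = 0.0227) and differed by -1.21 ± 0.21 (SE, adjusted p = 0.0278). It was the 1 called of 20 replication-dependent histone genes tested. Of these 20, 18 had a negative difference, with a median of -0.44 (-0.28 without YSCCC replicate 2). The histone values cover only the polyadenylated transcripts of these genes, so total histone messenger RNA was not measured.

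CP, the copper-binding plasma ferroxidase ceruloplasmin, was the 1 gene called in both lines in the same direction with a called difference. It stood at 0.372, 1.12 and 0.981 CPM in YSCCC controls and 2.81, 19.1 and 5.98 CPM with the hairpin, and at 13.6, 6.27 and 26.9 CPM and 46.4, 13 and 50.2 CPM in KKU-100. Every pair rose in both lines, from a far lower start in YSCCC, by 3.32 ± 0.31 (SE, adjusted p = 0.00124) and 1.24 ± 0.22 (SE, adjusted p = 0.0208), with a difference of 2.07 ± 0.39 (SE, adjusted p = 0.0325). ANGPTL4, an inhibitor of lipoprotein lipase, rose in YSCCC (1.77 ± 0.27, SE, adjusted p = 0.0093) from 1.53, 1.08 and 0.727 CPM to 6.99, 3.15 and 1.9 CPM and was lower in every KKU-100 pair, where it stood at 105, 113 and 59.3 CPM and 45.2, 96.1 and 47.9 CPM. The YSCCC arms were separate at low levels. The lines differed by 2.35 ± 0.33 (SE, adjusted p = 0.0134). DOCK8, an activator of the GTPase CDC42, rose in YSCCC (1.11 ± 0.24, SE, adjusted p = 0.0349) and had a negative effect in KKU-100 that missed the threshold (-0.87 ± 0.23, SE, adjusted p = 0.0755), with a difference of 1.98 ± 0.33 (SE, adjusted p = 0.0238).

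Of the remaining genes with a large positive difference and at least 1 CPM in both control groups, C1QL1, C2 and SLC16A9 fell in KKU-100, and SRGAP3 passed in neither line. C1QL1, a secreted protein related to complement C1q, fell in KKU-100 from 3.13, 6.04 and 11.1 CPM to 1.2, 1.19 and 3.44 CPM (difference 2.19 ± 0.36, SE, adjusted p = 0.0214). C2, a complement protease, fell there from 4.2, 3.25 and 15.2 CPM to 1.49, 0.905 and 2.67 CPM (difference 1.91 ± 0.32, SE, adjusted p = 0.0241). Replicate 3 was the highest KKU-100 library in each arm for both genes, and every pair fell. SLC16A9, a transporter of carnitine, fell in KKU-100 (-1.19 ± 0.20, SE, adjusted p = 0.0152) and was higher in every YSCCC pair (difference 1.78 ± 0.28, SE, adjusted p = 0.0201). SRGAP3, which inactivates RAC, had effects of 0.88 in YSCCC and -0.89 in KKU-100 (adjusted p = 0.0784 and 0.0788) and a difference of 1.76 ± 0.33 (SE, adjusted p = 0.0331).

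Several of the largest fitted differences came from genes with few counts in 1 line, where the size of the fold change is poorly set. STX19, a SNARE protein of vesicle fusion, had 7, 2 and 5 counts in the KKU-100 controls and 1, 0 and 0 in the hairpin libraries, against 252 and 396 counts summed over the YSCCC arms. CDA, cytidine deaminase of the pyrimidine salvage pathway, had 1, 2 and 1 counts in the KKU-100 controls and 16, 12 and 6 with the hairpin, against 3601 and 3190 in YSCCC. For the others the sums over the 3 libraries of an arm, shControl then shRNF213#2, were as follows in the line with few counts: 11 and 52 for PLEKHG4, 17 and 51 for FBN2, 32 and 51 for GFY, 35 and 13 for TMEM52B and 50 and 18 for ZNF90 in KKU-100, and 33 and 73 for MRPS30-DT in YSCCC. PLEKHG4 is an exchange factor of small GTPases, FBN2 is the microfibril protein fibrillin-2, ZNF90 is a zinc-finger gene and MRPS30-DT is a divergent transcript. FBN2 and GFY fell in YSCCC from 631 to 223 and from 875 to 174 counts (effects -1.57 ± 0.28 and -2.42 ± 0.31, SE, adjusted p = 0.0192 and 0.00455), and TMEM52B rose there from 965 to 1674 counts (0.80 ± 0.16, SE, adjusted p = 0.0286).

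GASK1B, a Golgi protein of the FAM20 kinase-like family, rose in KKU-100 from 9, 30 and 20 to 133, 109 and 193 counts (effect 2.75 ± 0.36, SE, adjusted p = 0.00499) with no overlap of the arms, while its YSCCC arms overlapped (difference -2.78 ± 0.46, SE, adjusted p = 0.0238). OLFML2A, an olfactomedin-domain protein, rose in KKU-100 (1.5 ± 0.33, SE, adjusted p = 0.0443) at levels of at most 12.4 CPM. SPTLC3, a subunit of serine palmitoyltransferase that starts sphingolipid synthesis, had 103, 23 and 7 counts in YSCCC controls and 34, 3 and 3 with the hairpin, passed in neither line and differed by -2.89 ± 0.59 (SE, adjusted p = 0.0427).

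Lists without a single called gene could still lie to one side. All 30 mitosis genes tested had a negative difference, with a median of -0.69 (0.17 in YSCCC and 0.90 in KKU-100) against 0.01 over all genes tested, and 0 were called by edgeR (2 had an unadjusted p below 0.05; 1 was called with no filter on low counts, and 0 by DESeq2 and by limma-voom). The median pair ratios were 0.249, 0.351 and -0.0798 for the YSCCC pairs, against 0.288, 0.0643 and 2.22 for those of KKU-100, with KKU-100 replicate 3 far above the rest. Without that pair 21 of the 30 were negative and the median was -0.08, and it was -1.08 without KKU-100 replicate 1 and -1.04 without replicate 2. The 25 cholesterol synthesis genes showed the reverse, with 23 positive differences, a median of 0.43 and 0 called by edgeR (3 had an unadjusted p below 0.05; 0 by DESeq2 and by limma-voom), and pair medians of -0.132, 0.319 and -0.38 for YSCCC against 0.139, -0.413 and -1.31 for KKU-100. Their summed level in KKU-100 was 1186, 2049 and 2734 CPM in controls and 1275, 1554 and 1134 CPM with the hairpin, and without replicate 3 the list had 14 positive and 11 negative differences with a median of 0.01. The median was 0.19 without YSCCC replicate 2 (19 positive and 6 negative) and 0.75 without KKU-100 replicate 1. KKU-100 replicate 3 thus combined a rise of mitosis transcripts with a fall of cholesterol synthesis transcripts that the other pairs did not show to that extent.

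**Figure D4:**
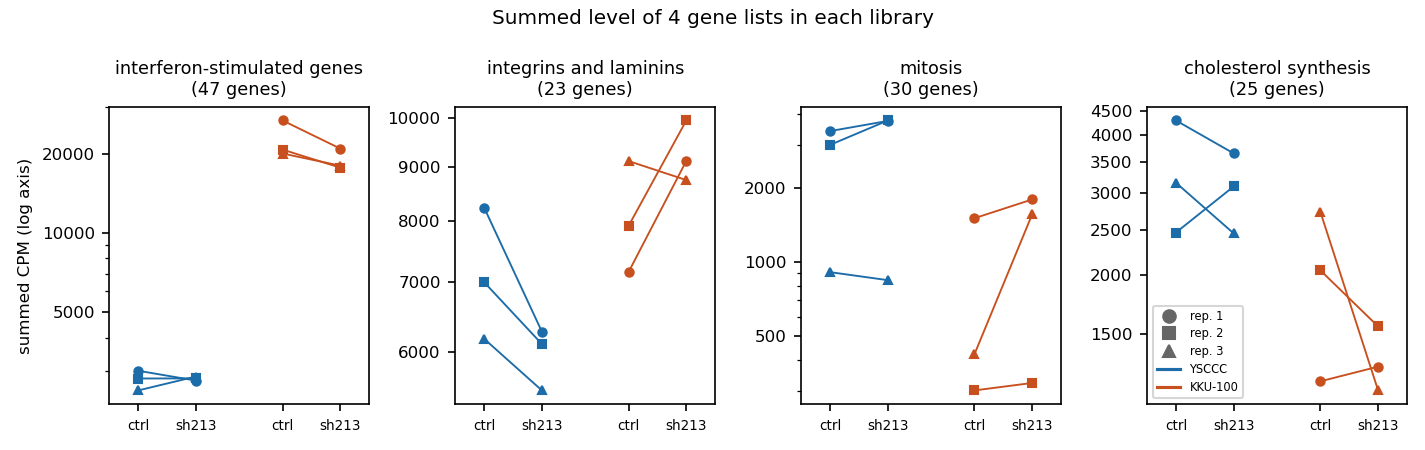
Summed CPM (log axes, each panel with its own range) of 4 gene lists in each of the 12 libraries; lines join the shControl and shRNF213#2 libraries of 1 replicate, blue for YSCCC and orange for KKU-100. The interferon sum falls in all 3 KKU-100 pairs, the integrin and laminin sum falls in all 3 YSCCC pairs, and the steep mitosis and cholesterol lines both belong to KKU-100 replicate 3.

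Other lists are given for the balance of signs. The 13 mitochondrially encoded respiratory genes all had a negative difference in the fit of 12 libraries, with a median of -0.16 (-0.29 without KKU-100 replicate 2, and -0.10 with 3 positive without replicate 3), no call and 0 members with an unadjusted p below 0.05 by edgeR, and DESeq2 and limma-voom called none. The 22 S100 and annexin genes had 19 negative differences, a median of -0.37 (-0.62 without KKU-100 replicate 2) and 1 call, S100A9. Their median pair ratios were 0.00262, -0.124 and -0.0386 for YSCCC and 0.401, 0.051 and 0.363 for KKU-100. Near an even split were hypoxia and glycolysis (14 positive of 31) and fatty acid and lipid droplet genes (15 positive of 30). So were MHC class I presentation (7 positive of 16) and TNF family and death receptor genes (12 positive of 23). None of these lists held a call in the edgeR fit used throughout, where 4, 6, 2 and 3 members had an unadjusted p below 0.05. DESeq2 called 0, 1, 0 and 2, and limma-voom called none. With no filter on low counts edgeR called 1 hypoxia and glycolysis gene and 2 fatty acid and lipid droplet genes. Since each list was measured in the same 12 libraries, these counts are descriptions and not separate tests.

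The lines also shared responses. In the same fit 26 genes were called in the same direction in both lines, CP among them. Among those whose effects were not shown to differ, TNFRSF21, a death receptor of the TNF family, rose in both (0.61 ± 0.10 in YSCCC and 0.67 ± 0.10 in KKU-100, SE), with a difference of -0.06 ± 0.14 (SE, adjusted p = 0.892). ADAM9, a membrane metalloprotease, PDGFC, a platelet-derived growth factor, CYP4F3, a leukotriene-degrading P450, and ZADH2 also rose in both lines. FZD5, a Wnt receptor, fell in both (-0.90 ± 0.14 and -0.82 ± 0.15, SE; difference -0.08 ± 0.20, SE, adjusted p = 0.9), as did BATF2, an interferon-induced transcription factor, MAPKBP1, PIP4K2A, a lipid kinase, and TNFAIP3.

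HuCCT1, which entered neither line's effect, gave a reading of the same genes in other cells. Fitted alone with its own pairs, the hairpin changed 22 of 15747 genes (0.14%) there. RNF213 itself had an effect of -0.89 in HuCCT1 and did not pass (adjusted p = 0.136 in edgeR's test). Of the 77 genes higher in YSCCC, 70 were tested in HuCCT1, with 42 positive and 28 negative effects and a median of 0.07. Of the 143 genes lower in YSCCC, 132 were tested, with 47 positive and 85 negative effects and a median of -0.07, and none of the 202 genes was called (44 had an unadjusted p below 0.05 in edgeR's test, against 1651 of all 14885 genes tested in both fits). The 7 genes of opposite direction had HuCCT1 effects from -0.21 for SH3RF2 to 0.59 for SBK1, and none was called (lowest adjusted p = 0.472). IFIT2 had an effect of -0.70 in HuCCT1 (adjusted p = 0.0748) and was negative in all 3 lines; the differences from HuCCT1 were not tested.

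**Figure D5:**
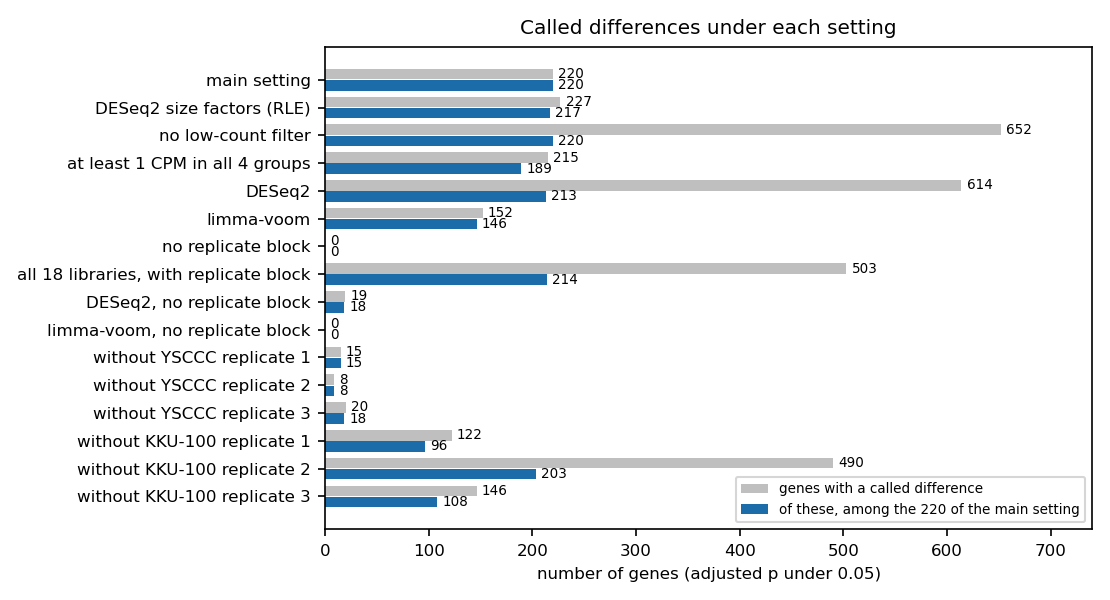
Number of genes with a called difference (grey bars, horizontal axis from 0) under the setting used throughout and 15 others, and how many of the 220 genes were among them (blue bars). Counts run from 0 without the replicate block under edgeR and limma-voom to 652 with no filter on low counts, and the bars for fits without a YSCCC pair lie at 8 to 20 genes.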

How the data were processed

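Polyadenylated RNA was sequenced from 750 ng of total RNA per library (TruSeq mRNA). Per the file headers the deposited values used are raw counts per gene, 1 file per library with 36601 gene IDs (build GRCh38). The submitters' processing notes name, among other tools, the aligner STAR (2.5.1b) and HTSeq (0.6.1p1). Whether reads were counted by strand is not stated there, so overlapping and antisense genes cannot be told apart. The deposited FPKM, TPM and scaled columns were not used.

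The 12 libraries of YSCCC and KKU-100 were fitted together in edgeR 4.0.16 under R 4.3.3 (TMM factors, filterByExpr with minimum count 10 and minimum total 15, quasi-likelihood F test), with 6 blocks for the replicate pairs and 1 hairpin effect per line, which leaves 4 residual degrees of freedom. Two-sided p-values of the 18162 genes were adjusted by Benjamini-Hochberg at a threshold of 0.05. The errors given as SE are standard errors worked back from the test, as the absolute log2 effect divided by the square root of its F statistic. They were not estimated directly by the fit. The test was run on simulated counts of 17909 genes, 200 of them changed. It recovered 44.4% of those changed by a log2 of 1 and 68.7% of those changed by 2. There were 18 false calls, and the share of false calls was above the threshold. DESeq2 1.42.0, limma-voom (limma 3.58.1), other scaling and filters, all 18 libraries, no block and leaving out each pair were the alternatives.

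Pairing comes from the replicate numbers in the titles. Deviations from the group mean of same-numbered shControl and shRNF213#2 libraries correlated at 0.805, 0.716 and 0.899 for the YSCCC pairs and at 0.725, 0.600 and 0.379 for those of KKU-100 over 10285 genes with mean log2 CPM above 3, all above the minimum of 0.1. Libraries of different numbers also correlated above it in YSCCC (0.514 and 0.656 between replicates 1 and 2) and KKU-100 (0.125, shControl 3 with shRNF213#2 2), but each library correlated best with its own number. The comparison, the 43 gene lists and the rules were chosen with earlier results of these data known. Named genes are RNF213 and up to 12 genes per sign with the largest called difference, at least 5 CPM in 1 group and pair ratios that do not overlap. Also named are the genes of opposite direction, up to 4 called members per list, and up to 5 shared genes per direction with the smallest absolute difference. IFI44 and C1RL were added after their values were seen. Of the gene IDs, 34616 had a type in GENCODE release 29. Counting error is small for most genes at these depths and large for the genes with few counts that the report names. With the replicate pairs as blocks, the p-values rest on the spread of the hairpin effect between the pairs of a line. The spread between replicates of 1 arm is taken up by the blocks. Some members of the gene lists enter the counts and are not reported here by name.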

Additional observations from a re-analysis of the deposited data

Results flagged for a closer look

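The hairpin effect differed between YSCCC and KKU-100 for 220 genes by a test of the difference itself (edgeR's quasi-likelihood test with Benjamini-Hochberg adjustment). The 66 of them that are named in the report are listed by the line in which the effect passed, each with its difference of effects (log2, YSCCC minus KKU-100). Where the effect of KKU-100 alone passed, the difference was positive for CCL5 (2.20), C1QL1 (2.19), C2 (1.91), ZNF90 (1.83), SLC16A9 (1.78), COL6A2 (1.70), OASL (1.48), CD83 (1.27), RSAD2 (1.21), IFIT2 (1.19), IFIT3 (1.11) and CSF1 (1.02). It was negative, again with the effect of KKU-100 alone passing, for CDA (-3.18), SLC6A14 (-3.07), COL3A1 (-2.78), GASK1B (-2.78), PLEKHG4 (-2.56), OLFML2A (-2.48), PLAU (-2.43), TRIM29 (-2.22), TGFA (-1.97), S100A9 (-1.65), CYP4F12 (-1.27), GALNT1 (-1.26), COL4A5 (-1.16), SEMA3C (-1.15) and GALNT10 (-1.09). Where the effect of YSCCC alone passed, the difference was positive for TMEM52B (2.36), ANGPTL4 (2.35), DOCK8 (1.98), C1RL (2.02), LAMA4 (1.76), PEG10 (1.49), EGR1 (1.12), SLC35A1 (1.02), FGFR1 (0.87) and IFI44 (0.87). It was negative with the effect of YSCCC alone passing for FBN2 (-2.97), GFY (-2.95), DSG2 (-1.23), HIST1H2BC (-1.21), CYLD (-1.09), ITGA5 (-1.04), BMP1 (-0.96), SEC23A (-0.93), HERPUD1 (-0.81), CLDN1 (-0.80), DNAJC3 (-0.80) and FKBP10 (-0.71). Where the effect passed in neither line, the difference was positive for STX19 (4.18), MRPS30-DT (2.11) and SRGAP3 (1.76). It was negative with neither passing for SPTLC3 (-2.89), SEMA3B (-1.73), AXIN2 (-1.58), LAMA3 (-1.16), ITGA6 (-1.11) and IL4R (-0.91). Where the effects passed in both lines with opposite signs, the difference was positive for SBK1 (1.61) and CAMK2N1 (1.23). With opposite signs and a negative difference there were SH3RF2 (-2.60), CPE (-2.01), SFXN3 (-1.62), PPP2R5B (-1.18) and SLC9A7 (-1.0). Where the effects passed in both lines with the same sign, the difference was positive for CP (2.07). Of these values, those of STX19, CDA, PLEKHG4, FBN2, GFY, TMEM52B, ZNF90, MRPS30-DT, C1RL and SPTLC3 rest on few counts in 1 line, so their size depends on the small count that edgeR adds and is no bound. The shControl sums were also low for GASK1B in KKU-100 (59 counts) and for CP in YSCCC (65 counts), so the size of these differences is poorly set too. The part of line, medium and culture state in these differences cannot be told apart, since each line was grown in its own medium. With 3 libraries per group, single libraries far from the others were not tested for.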

How the results depend on the processing

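The 220 called differences and the 7 genes of opposite direction depended on the settings in number. All 220 kept the sign of the difference in every fit that tested them. Selection by that difference favours this, so it is no separate support. The counts were 652 and 36 with no filter on low counts, 614 and 31 with DESeq2, and 503 and 31 with all 18 libraries, HuCCT1 included, in the fit. Without the replicate block, and so without the pairing, edgeR called 0 and 0 (884 genes had an unadjusted p below 0.05), and 2 fits chosen after seeing the data gave 19 and 1 (DESeq2, no block) and 0 and 0 (limma-voom, no block; 901 unadjusted). Leaving out each pair in turn gave 8 to 490 called differences and 0 to 40 genes of opposite direction. With DESeq2 size factors the counts were 227 and 6, with at least 1 CPM in all 4 groups 215 and 6, and with limma-voom 152 and 7. The cause was not tested. Of the 220 genes, 217 stayed called with other size factors, 213 with DESeq2, 146 with limma-voom and 214 with 18 libraries. The difference of RNF213 did not pass in any fit. Of the 66 named differences, 38, 65 and 36 stayed called without KKU-100 replicate 1, 2 or 3, and 8, 6 and 12 without YSCCC replicate 1, 2 or 3. By limma-voom with the block, 49 of the 66 stayed called. With 4 residual degrees of freedom, an effect that missed the threshold is not shown to be absent.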
